A study of Homo sapiens with 6 samples.

Results

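Nonsense-mediated decay (NMD) is the pathway by which cells destroy mRNAs whose translation ends too early. The core helicase UPF1 is phosphorylated by the kinase SMG1 when a ribosome stops upstream of an exon junction complex or far from the poly(A) tail. The adaptors UPF2, UPF3A and UPF3B link UPF1 to that complex, SMG8 and SMG9 hold the SMG1 kinase in check, and SMG5 and SMG6 bind phosphorylated UPF1 and start the decay of the RNA. Several of these factors are themselves substrates of NMD, so that their mRNAs can rise when decay is impaired.

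The 9 genes described here, UPF1, UPF2, UPF3A, UPF3B, SMG1, SMG5, SMG6, SMG8 and SMG9, were found by gene name among the 58735 genes of the table, and each name matched 1 gene. RNA was measured in LoVo, an established human colorectal cancer cell line, in 3 samples given a control siRNA (si-NC) and in 3 given an siRNA against the splicing factor SRSF11 (si-SRSF11). Both groups are the same line with the same transfection, and no other allele or agent is given for either. The study made 3 siRNAs against SRSF11, and which of them was sequenced is not given in the sources used here. Poly(A)-selected libraries were read as 150 bp pairs, and the authors deposited the counts of reads on each gene.

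The libraries held 14369525 to 16685719 counts, and levels are given as CPM, which are counts scaled to a common library size by TMM. Values of single libraries follow the order of replicates 1, 2 and 3 throughout. In bulk RNA, fewer cells that express a gene and less RNA per cell cannot be told apart. SRSF11 itself stood at 87.6, 84.3 and 87.5 CPM in si-NC and at 50.4, 48.5 and 49.5 CPM in si-SRSF11, so each library matched its label. Of 10 colon epithelial markers, KRT20 alone was under 1 CPM, and of 13 markers of other cell types 10 were under 1 CPM, among them 3 with no count. The summed level of those 13 markers was 52.9 to 58.6 CPM in si-NC and 58.8 to 64.3 CPM in si-SRSF11, and rests mostly on the few above 1 CPM. At an adjusted p under 0.05 in edgeR, 1 of the 4 tested among them was higher. Of the 10 colon markers 2 were higher, beside 13.2% of all tested genes. Mitochondrial genes took at most 7.25% of counts in a si-NC library and at least 8.29% in a si-SRSF11 library. Their part in the results was not tested beyond a fit without mitochondrial genes, in which the same number of NMD factors passed.

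Of the 9 NMD factors, SMG9 and SMG5 changed, and both fell. SMG9, a regulatory subunit of the SMG1 kinase complex, dropped to 74.2% of its si-NC level, and SMG5, an adaptor that recruits RNA decay enzymes, dropped to 90.4%. With edgeR's quasi-likelihood method and an adjusted p under 0.05, 0 of 9 were higher and 2 of 9 were lower, beside 13.2% of all 15801 tested genes higher and 11.4% lower. In either direction these 2 are 22.2% of the members, close to the 24.6% of all tested genes. At an unadjusted p under 0.05 in edgeR, 1 member was higher and 2 were lower, and the share of all genes at that cutoff was not computed. DESeq2 gave 0 higher and 2 lower, beside 1564 higher and 1496 lower of all 15801 tested genes. With the additional threshold of an absolute log2 fold change over 1, 0 members passed, beside 1.09% of all tested genes. The median log2 fold change of the 9 genes was 0.08, against 0.0015 over all tested genes. Leaving out 1 library moved it to between 0.026 (without si-NC replicate 3) and 0.12 (without si-SRSF11 replicate 3), with 0.032 without si-SRSF11 replicate 2 and 0.052 without si-SRSF11 replicate 1, and scaling by library size alone gave 0.048. The summed level of the 9 genes was 727, 714 and 711 CPM in si-NC and 697, 699 and 679 CPM in si-SRSF11. Of the 9 log2 fold changes 6 were above 0 and 3 below, and the lower sum came from SMG5 and SMG9.

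The promoters of the 2 factors that fell are shown because SMG9 and SMG5 were the members that passed the test. They come from RefSeq on GRCh38.p14, cover 300 bases around a transcript start (for SMG5, 1 of 2 starts in the table, the other window having no CGCGAGA), and are written 5′ to 3′ on the strand of the gene. The table held promoters of 8 of the 9 members, and SMG8 was not matched. Capitals in SMG9 mark GCGCNTGCG, the core of the site of the factor NRF1, and capitals in SMG5 mark CGCGAGA, part of a palindrome common in promoters without a TATA box, each searched on both strands.
SMG9, chr19:43754913-43755212, minus strand: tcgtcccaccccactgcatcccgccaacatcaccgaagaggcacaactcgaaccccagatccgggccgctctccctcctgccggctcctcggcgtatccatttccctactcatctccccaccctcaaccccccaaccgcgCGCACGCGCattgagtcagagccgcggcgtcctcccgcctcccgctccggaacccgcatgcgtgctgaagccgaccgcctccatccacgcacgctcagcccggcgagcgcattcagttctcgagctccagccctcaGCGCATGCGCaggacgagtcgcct
SMG5, chr1:156282776-156283075, minus strand: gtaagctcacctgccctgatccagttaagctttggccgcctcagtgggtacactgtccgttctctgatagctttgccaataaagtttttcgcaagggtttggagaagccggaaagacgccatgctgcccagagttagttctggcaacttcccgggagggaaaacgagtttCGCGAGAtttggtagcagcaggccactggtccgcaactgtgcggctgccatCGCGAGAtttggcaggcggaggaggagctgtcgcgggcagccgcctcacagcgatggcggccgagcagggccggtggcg

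SMG9 held 3 matches of GCGCNTGCG, of which 2 overlap on opposite strands, and SMG5 held 2 matches of CGCGAGA. The letters GCGCNTGCG occurred at a start of 4 of the 8 members in the table, namely UPF1, UPF2, SMG6 and SMG9, beside 7.47% of all 35116 promoter windows and 9.01% of 27305 genes. The letters CGCGAGA occurred at a start of SMG5, UPF3A and UPF3B, beside 3.49% of all windows and 4.17% of genes. No member held both motifs, and the 2 factors that fell carried different ones. The cAMP response element TGACGTCA was in the windows of 0 members and in 1.85% of all windows. The GC box GGGCGG was at a start of 7 of the 8 members, beside 48.3% of genes. The letters CCAAT were at a start of 4 of the 8, beside 39.7% of genes. The motifs were chosen after the promoters had been read, and a match is a description of letters only.

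SMG9 (ENSG00000105771, chromosome 19 of GRCh38, 43727992 to 43754990, minus strand) drew 811, 942 and 965 reads in si-NC and 695, 721 and 729 in si-SRSF11. In CPM these were 55.9, 62.0 and 61.9 in si-NC and 44.4, 44.4 and 44.7 in si-SRSF11. The groups did not overlap, the si-SRSF11 libraries were close together, and si-NC replicate 1 was the lowest control. The mean of 60.0 ± 3.49 CPM in si-NC (SD, n = 3) fell to 44.5 ± 0.181 CPM (SD, n = 3), which gave p = 0.10 in an exact two-sided permutation test, which is the lowest that 3 samples against 3 can reach. Its log2 fold change in edgeR was -0.43, with a standard error of 0.061 and an adjusted p of 1.9e-05. With each library left out in turn it stayed between -0.48 and -0.41. SMG9 shared no exon base with another annotated gene, and none of the 100-nt windows of its main transcript occurred in another gene.

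SMG5 (ENSG00000198952, chromosome 1, 156249224 to 156282825, minus strand) had the most reads of the members, with 3561 to 3918 counts in si-NC and 3544 to 3588 in si-SRSF11. Its level was 252, 234 and 252 CPM in si-NC and 228, 218 and 220.0 CPM in si-SRSF11. The groups did not overlap, with control replicate 2 and si-SRSF11 replicate 1 nearest to each other. The control mean of 246 ± 9.99 CPM (SD, n = 3) compared with 222 ± 5.49 CPM after knockdown (SD, n = 3, exact two-sided permutation p = 0.10). Its log2 fold change in edgeR was -0.15, with a standard error of 0.048 and an adjusted p of 0.028. The call was lost without si-NC replicate 1 (log2 fold change -0.13, adjusted p = 0.13 in edgeR), without si-NC replicate 3 (-0.13, adjusted p = 0.12) and without si-SRSF11 replicate 2 (-0.13, adjusted p = 0.099). In that order, these fits called 2741, 2852 and 2990 of all genes, against 3886 with all libraries. Across the 9 genes, SMG5 and SMG9 were the 2 whose groups did not overlap, against 38.8% of all tested genes.

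**Figure D1:**
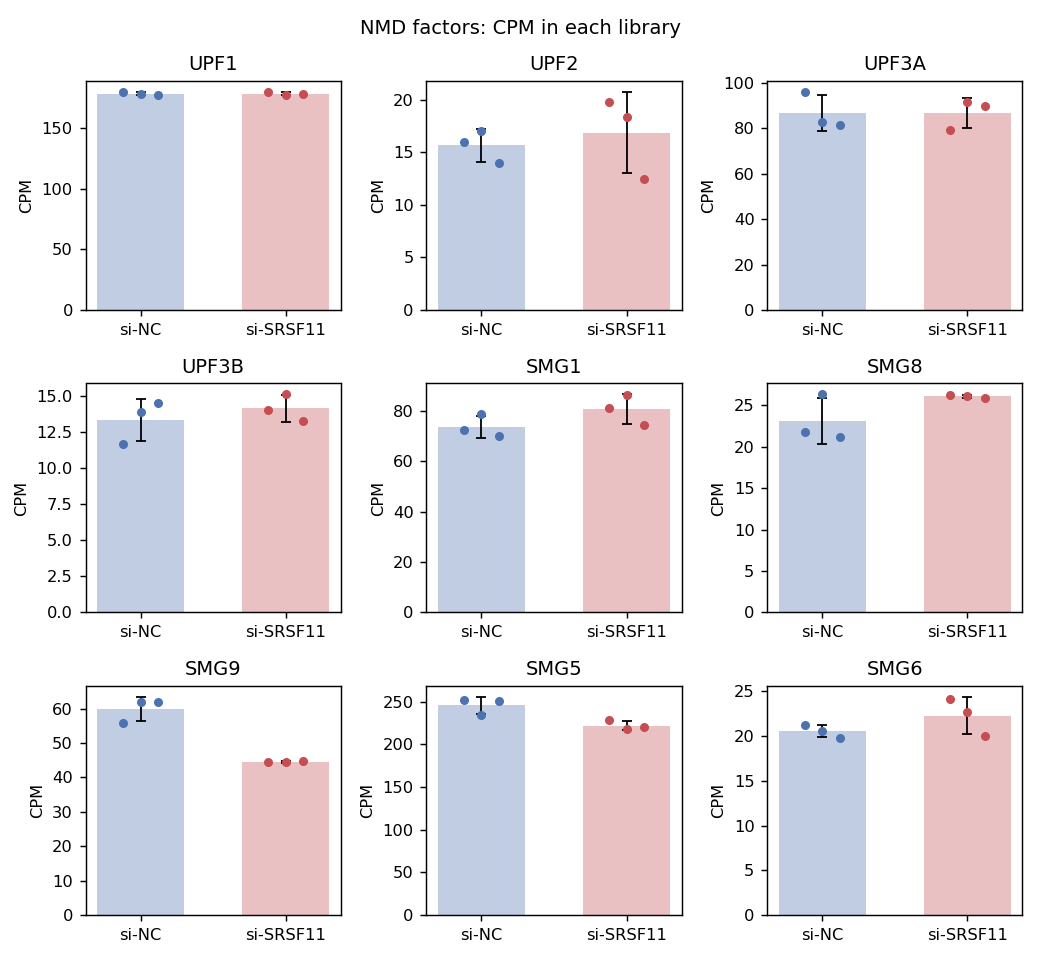
CPM of each NMD factor in the 3 si-NC and 3 si-SRSF11 libraries, with a panel per gene. Points are libraries, bars are means and error bars are the SD. The si-SRSF11 points of SMG9 lie at 44.4 to 44.7 CPM, below the lowest si-NC point at 55.9 CPM, and those of UPF1 lie level with si-NC.

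UPF1, the helicase on which the pathway depends, was the steadiest member. UPF1 (ENSG00000005007, chromosome 19, 18831938 to 18868236, plus strand) stood at 179.6, 178 and 177 CPM in si-NC and at 179.7, 177 and 178 CPM in si-SRSF11. Both means were 178 CPM, with SDs of 1.33 for the controls and 1.35 for si-SRSF11 (n = 3 each), and the groups overlapped. The 95% interval of its log2 fold change ran from -0.094 to 0.094 (adjusted p = 0.998 in edgeR).

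The adaptors UPF2, UPF3A and UPF3B did not pass the test. UPF2 (ENSG00000151461, chromosome 10, 11920022 to 12043170, minus strand), the scaffold between UPF1 and the UPF3 proteins, stood at 16.0, 17.04 and 13.9 CPM in si-NC and at 19.8, 18.3 and 12.4 CPM in si-SRSF11. Its si-SRSF11 libraries spread on both sides of the controls, with replicate 3 the lowest of all 6. The log2 fold change was 0.10 (95% interval -0.17 to 0.38), and it rose to 0.28 without si-SRSF11 replicate 3 and turned to -0.029 without si-SRSF11 replicate 1, with no call in either fit.

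UPF3A (ENSG00000169062, chromosome 13, 114281584 to 114305817, plus strand) and UPF3B (ENSG00000125351, chromosome X, 119805311 to 119852998, minus strand) are paralogues that bind UPF2, and UPF3B also binds the exon junction complex. UPF3A stood at 95.9, 82.9 and 81.3 CPM in si-NC and at 79.1, 91.4 and 89.8 CPM in si-SRSF11, with the highest library in si-NC and the lowest in si-SRSF11. Its log2 fold change was 0.0022 (95% interval -0.13 to 0.14), and with a library left out it ran from -0.043 to 0.080. UPF3B stood at 11.7, 13.9 and 14.5 CPM in si-NC and at 14.1, 15.1 and 13.3 CPM in si-SRSF11, and the groups overlapped. Its log2 fold change was 0.08 (95% interval -0.14 to 0.31), on 170 to 246 counts per library, and it ran from -0.0029 without si-NC replicate 1 to 0.14 without si-NC replicate 3, with no call. Per length, UPF3A was 3.52 ± 0.745 (SD, n = 3) times as high as UPF3B in si-NC and 3.27 ± 0.303 (SD, n = 3) times in si-SRSF11. The balance of the paralogues thus moved by less than its spread between libraries. The size of the ratio depends on the length used, here all annotated exons, 5772 nt for UPF3A and 3081 nt for UPF3B. The main transcripts are nearly equal, at 2387 and 2378 nt, and the ratio of counts without length scaling was 6.59 in si-NC and 6.14 in si-SRSF11. Of the 100-nt windows of the UPF3A transcript, 25.7% also occur in the pseudogenes UPF3AP1 and UPF3AP2, which had 0 to 14 counts in any library.

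In the SMG1 kinase complex, SMG9 fell, as given above, while the regulator SMG8 and the kinase SMG1 did not pass the test. SMG8 (ENSG00000167447, chromosome 17, 59209400 to 59215247, plus strand) stood at 21.8, 26.3 and 21.2 CPM in si-NC and at 26.2, 26.1 and 25.9 CPM in si-SRSF11. Control replicate 2 lay above all 3 si-SRSF11 libraries, and the other controls lay below them. The log2 fold change was 0.18 (95% interval -0.0077 to 0.36, adjusted p = 0.16 in edgeR), and without si-NC replicate 2 it was 0.28 and passed (adjusted p = 0.038). Without si-NC replicate 3 it was 0.11 (adjusted p = 0.46 in edgeR). The ratio of SMG9 to SMG8 per length was 1.21, 1.11 and 1.38 in si-NC and 0.802, 0.805 and 0.816 in si-SRSF11. SMG9 was thus above SMG8 per length in each control library and below it in each si-SRSF11 library. These lengths count all annotated exons, 7927 nt for SMG9 and 3752 nt for SMG8. The main transcripts are 5510 and 3477 nt, so which of the 2 genes stands higher depends on the length used. The ratio was chosen after the values were seen and was not tested. Of the exon bases of SMG8, 11.2% are shared with AC099850.2, which had 0 counts in each library.

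SMG1 (ENSG00000157106, chromosome 16, 18804853 to 18926454, minus strand) stood at 72.6, 78.7 and 70.1 CPM in si-NC and at 81.2, 86.4 and 74.6 CPM in si-SRSF11. The groups overlapped, with si-SRSF11 replicate 3 below control replicate 2. The log2 fold change was 0.13 (95% interval 0.0029 to 0.26, unadjusted p = 0.045 and adjusted p = 0.13 in edgeR), and without si-SRSF11 replicate 3 it was 0.18 and passed (adjusted p = 0.028). Without si-SRSF11 replicate 2 it was 0.078 (adjusted p = 0.45 in edgeR).

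The level of SMG1 depends on how reads were divided between the gene and its copies on chromosome 16. Of the 100-nt windows of the main SMG1 transcript, 11.5% also occur in other genes. The pseudogene SMG1P2 alone holds 6.31% of all the windows, the most of any other gene. The 60 bases below span exons 3 and 4 of SMG1 and of SMG1P2, and the longest exact run that the SMG1 coding sequence shares with SMG1P2 is 262 nt. The 60 bases were taken around the end of that run, a stretch picked for its likeness, and do not describe the whole transcripts. The 2 capitals mark the bases that differ.
SMG1, chr16:18892307-18896063 with the intron, minus strand: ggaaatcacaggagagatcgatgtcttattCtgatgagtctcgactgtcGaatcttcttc
SMG1P2, chr16:29561604-29565362 with the intron, minus strand: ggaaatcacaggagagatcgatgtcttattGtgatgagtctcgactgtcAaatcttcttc

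The 7 SMG1 pseudogenes together stood at 43.6, 47.6 and 40.2 CPM in si-NC and at 40.0, 41.5 and 39.1 CPM in si-SRSF11. They took 37.5%, 37.7% and 36.4% of the SMG1 and pseudogene counts in si-NC and 33.0%, 32.5% and 34.4% in si-SRSF11. Each si-SRSF11 share was thus below each control share. SMG1P1 held the most, with 288 to 361 counts per library and a log2 fold change of -0.12 that did not pass. SMG1P7 fell from 37, 43 and 41 counts to 24, 24 and 16 counts, at -1.003 on the log2 scale (adjusted p = 0.0085 in edgeR). It was the only one of 6 tested pseudogenes to pass, which is 16.7% beside 24.6% of all tested genes. SMG1P4, with 0 to 9 counts, was not tested. SMG1P2 (log2 fold change -0.32), SMG1P3 (-0.056), SMG1P5 (0.24) and SMG1P6 (0.15) did not pass. Counted as 1 gene with its pseudogenes, SMG1 stood 0.040 higher on the log2 scale and did not pass (adjusted p = 0.65 in edgeR), against 0.13 on its own. How the reads were assigned between the copies is not given in the sources used here.

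**Figure D2:**
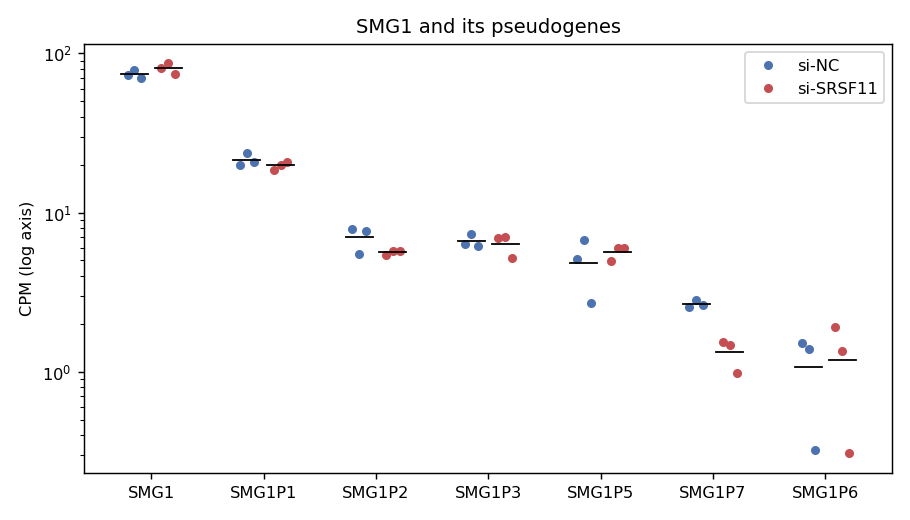
CPM, on a log axis, of SMG1 and its 6 tested pseudogenes in the 3 si-NC and 3 si-SRSF11 libraries. Points are libraries and black lines are means. SMG1 lies above each pseudogene, and the SMG1P7 points of the 2 groups do not overlap, with mean CPM of 2.67 for the controls and 1.33 for si-SRSF11.

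SMG6 (ENSG00000070366, chromosome 17, 2059839 to 2303771, minus strand), the endonuclease that cuts the mRNA near the premature stop, stood at 21.2, 20.6 and 19.8 CPM in si-NC and at 24.2, 22.7 and 20.1 CPM in si-SRSF11. Replicate 3 of si-SRSF11 fell among the controls and the other two lay above them. The log2 fold change was 0.12 (95% interval -0.070 to 0.31, adjusted p = 0.37 in edgeR), and it ran from 0.052 without si-SRSF11 replicate 1 to 0.19 without si-SRSF11 replicate 3, with no call. Of the SMG6 exon bases, 22.9% are shared with HIC1, which lies on the other strand and had 42, 43 and 38 counts in si-NC and 28, 21 and 43 in si-SRSF11. The library kit is not stated to keep strand, so reads of SMG6 and HIC1 cannot be told apart there.

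**Figure D3:**
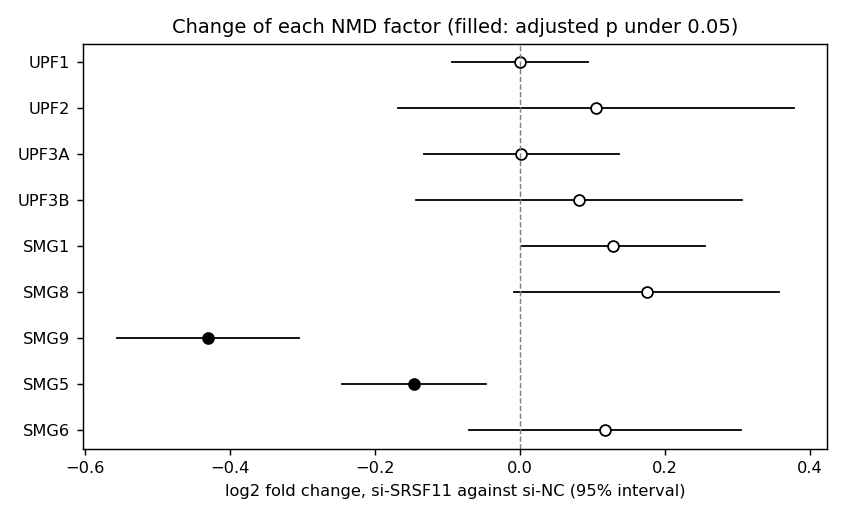
Log2 fold change of each NMD factor in si-SRSF11 against si-NC with its 95% interval from edgeR. Filled points have an adjusted p under 0.05. SMG9 at -0.43 and SMG5 at -0.15 are the 2 filled points, and the intervals of the other members except SMG1 span 0.

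Per length, the members differed by 23.8 times between the highest and the lowest. In si-NC, SMG5 was the highest at 46.3 ± 1.88 CPM per kb of exon (SD, n = 3), followed by UPF1 at 20.7 ± 0.154, UPF3A at 15.0 ± 1.39, SMG9 at 7.56 ± 0.440, SMG8 at 6.16 ± 0.748 and UPF3B at 4.34 ± 0.474. The lowest were SMG1 at 2.84 ± 0.170, UPF2 at 2.65 ± 0.268 and SMG6 at 1.95 ± 0.0665 CPM per kb. The ranges of the 3 si-NC libraries separated each member from the next, except for SMG1 and UPF2, which overlapped. In si-SRSF11, SMG8 at 6.95 ± 0.0366 stood above SMG9 at 5.61 ± 0.0229 CPM per kb, and the order of the other members was the same. Exon length counts every annotated exon of a gene, which lowers the level per length of genes with many rarely used exons. UPF3A, for example, has 5772 nt of exon but a main transcript of 2387 nt, and UPF1 has 8600 and 5348 nt. The order of the members and the span of 23.8 times therefore hold for this length only.

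**Figure D4:**
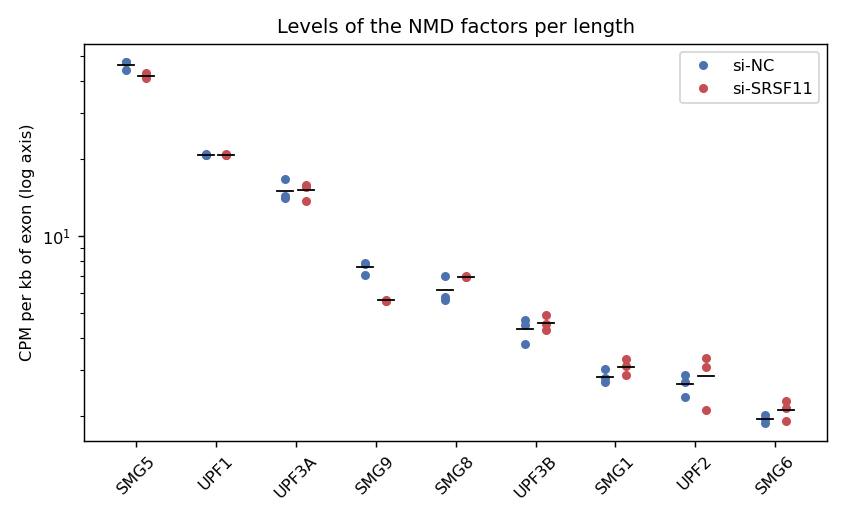
Level of each NMD factor as CPM per kb of exon, on a log axis, in order of the si-NC mean. Points are the 3 libraries of each group and black lines are means. SMG5 is the highest at 46.3 and SMG6 the lowest at 1.95 CPM per kb in si-NC. SMG8 and SMG9 change places in si-SRSF11. The order of the members depends on the use of all annotated exons as the length.

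Long 3′ UTRs, upstream start codons and introns behind the stop codon are features that can make an mRNA an NMD substrate. In GENCODE 29, the main transcripts of 6 of the 9 members have a 3′ UTR over 1000 nt, which is 66.7%, beside 50.7% of 12746 tested protein-coding genes. The longest belong to SMG1 with 4719 nt and SMG9 with 3607 nt, and the shortest to SMG8 with 240 nt. SMG5 has 1366 nt, UPF1 has 1722 nt, SMG6 has 1652 nt, UPF2 has 1279 nt, UPF3A has 903 nt and UPF3B has 859 nt. UPF2 carries 13 ATG triplets in its 5′ UTR of 474 nt, and SMG1, SMG5 and SMG9 carry 1 each. Transcripts annotated as NMD substrates exist for SMG1, SMG8 and SMG9, which is 33.3% of the members, beside 42.7% of tested protein-coding genes. The members with such features therefore include both factors that fell and others that did not pass. Counts per gene do not separate isoforms, so a change in the decay of 1 isoform cannot be told apart from a change in transcription.

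Of 16 other NMD-linked genes, PABPC4 and ICE1 were higher and MOV10 was lower, which is 18.8% called beside 24.6% of all tested genes, with a median log2 fold change of -0.0081. PABPC4, a poly(A)-binding protein, rose from 252, 250.5 and 254.5 CPM to 347.5, 326 and 335 CPM (log2 fold change 0.41, adjusted p = 7.7e-07 in edgeR). ICE1, a protein that helps load UPF3B on exon junction complexes, rose by a log2 fold change of 0.30 (adjusted p = 0.0056 in edgeR). MOV10, an RNA helicase that works with UPF1, fell from 90.3, 79.1 and 84.9 CPM to 72.3, 71.0 and 69.1 CPM (log2 fold change -0.26, adjusted p = 0.0017 in edgeR).

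Among 10 exon junction complex genes, 3 rose and 1 fell, beside 13.2% higher and 11.4% lower among all tested genes, with a median log2 fold change of 0.10. EIF4A3, the helicase that clamps the complex on RNA, rose from 141, 139 and 143 CPM to 161, 172 and 160.0 CPM (log2 fold change 0.22, adjusted p = 0.0017 in edgeR). RNPS1, a peripheral splicing and NMD activator, rose by 0.22, and PYM1, which takes the complex apart during translation, rose by 0.26 on the log2 scale. ACIN1, which binds RNPS1, fell by 0.16 on the log2 scale (adjusted p = 0.018 in edgeR), a call that was lost without si-NC replicate 2 (adjusted p = 0.081) or replicate 3 (adjusted p = 0.065). UPF3B belongs to this list as well as to the 9 members.

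None of 14 genes for decapping, deadenylation and 5′ to 3′ decay passed edgeR's test, beside 24.6% of all tested genes, and the median log2 fold change was 0.016. At an unadjusted p under 0.05 in edgeR, 3 were higher and 1 was lower, and the share of all genes at that cutoff was not computed. DESeq2 called 0 of 14, beside 3060 of all 15801 tested genes. The values ran from -0.13 for DCP1B to 0.14 for PATL1. The list covers the decapping enzyme, its activators, the exonucleases XRN1 and XRN2 and parts of the CCR4-NOT complex.

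Of 19 transcripts known as NMD substrates, 12 fell and 1 rose, which is 68.4% called beside 24.6% of all tested genes (11.4% lower and 13.2% higher), with a median log2 fold change of -0.27. This list, like the others, was chosen with earlier results of these data known, so its share describes these 19 genes only. UPP1, a pyrimidine salvage enzyme, fell most, from 92.2, 88.1 and 90.1 CPM to 56.9, 55.5 and 61.9 CPM (log2 fold change -0.63, adjusted p = 3.1e-08 in edgeR). GADD45A, a stress sensor, fell from 185, 175 and 181 CPM to 109, 120.3 and 128 CPM (log2 fold change -0.60, adjusted p = 4.7e-08 in edgeR). DDIT3, the transcription factor CHOP of the stress response, fell by 0.49 on the log2 scale (adjusted p = 1.2e-07 in edgeR). GAS5, a noncoding host of small nucleolar RNAs whose spliced form is a textbook NMD substrate, fell from 359, 348 and 340 CPM to 246, 262 and 272 CPM (log2 fold change -0.42, adjusted p = 1.3e-06 in edgeR).

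The falls included noncoding hosts and mRNAs. Of 9 hosts of small nucleolar RNAs, 6 were lower and 3 did not pass, and of 10 mRNAs 6 were lower, 1 was higher and 3 did not pass. Among all tested genes, 11.4% were lower and 13.2% higher. The split by kind describes only these listed genes, which were chosen with earlier results known. ATF4, a stress response factor with upstream open reading frames, stood at 634, 627 and 659 CPM in si-NC and at 678, 671 and 699 CPM in si-SRSF11 and did not pass (adjusted p = 0.13 in edgeR). BAG1, a cochaperone, was the gene that rose, by a log2 fold change of 0.24. Transcription and decay cannot be told apart in these counts.

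Many genes of splicing factors limit their own output by splicing in exons that lead to NMD. Of 19 genes with such isoforms, 9 were higher and 2 were lower, beside 13.2% and 11.4% of all tested genes, with a median log2 fold change of 0.072. The list holds 8 SR protein genes, which are not the whole family and do not include SRSF11. These 8 were among the 9 higher, and the 11 other genes gave 1 higher, 2 lower and 8 that did not pass. With DESeq2, with library size alone and without si-NC replicate 1, si-NC replicate 2 or si-SRSF11 replicate 3, 8 genes of the list were higher, and without si-SRSF11 replicate 2 there were 7, so that not all 8 SR protein genes passed in that fit. SRSF3 rose by 0.33, SRSF10 by 0.32 and SRSF2 by 0.38 on the log2 scale. CLK1, a kinase of SR proteins, fell from 46.4, 46.3 and 44.3 CPM to 31.7, 34.7 and 31.6 CPM (log2 fold change -0.48, adjusted p = 1.4e-05 in edgeR). PTBP1 at 0.0040, RPL3 at 0.072 and TIA1 at -0.016 did not pass.

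**Figure D5:**
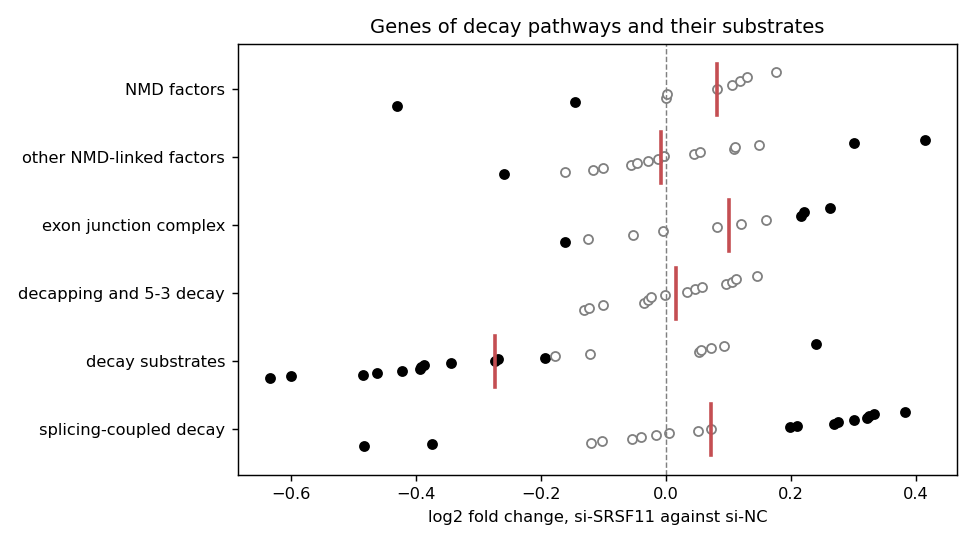
Log2 fold change in si-SRSF11 against si-NC of the tested genes of 6 lists, with the NMD factors at the top. Each point is a gene, filled points have an adjusted p under 0.05 in edgeR, and red lines are medians. Decay substrates have the lowest median at -0.27, and the NMD factors a median of 0.08. The lists were chosen with earlier results of these data known.

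Ranked over 6315 other protein-coding genes whose mean log2 CPM reached 5, those whose level over the 6 libraries was most like the summed level of the 9 factors were TMEM245 (Pearson's r = 0.998), PLS1 (r = 0.992) and SCRN1 (r = 0.989). SMG5 and UPF1, which had the most reads, weigh most in the size of that sum. UPF1 varied little between libraries, from 177.0 to 179.7 CPM, and so adds little to the likeness, while SMG5 ran from 218 to 252 CPM. The libraries of a group share their treatment, and these values only describe 6 points. Neither TMEM245, at a log2 fold change of -0.11, nor PLS1, at -0.18, passed (adjusted p = 0.12 and 0.054 in edgeR), and SCRN1 fell by 0.19 on the log2 scale (adjusted p = 0.0051 in edgeR).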

How the data were processed

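LoVo RNA was measured in 3 si-NC and 3 si-SRSF11 libraries, grouped by the deposited labels. The authors deposited raw counts per gene in 1 table, with no normalization, on hg38. The aligner and counter are not given in the sources used here. The study describes them as 3 pairs of independent RNA samples, and the labels do not say what a shared number marks.

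Genes that reached 10 counts in 3 or more libraries were scaled by TMM and tested on condition alone with edgeR (version 4.0.16, R version 4.3.3; glmQLFit, glmQLFTest), with Benjamini-Hochberg adjustment over all 15801 tested genes. Standard errors came from the F statistic. The deposited gene length gave CPM per kb. Transcript features came from GENCODE 29. The fits were tested on simulated data.

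The members and lists were chosen with earlier results of these data known. Named are the members, SRSF11, at most 4 called genes per list with the smallest adjusted p, the SMG1 pseudogenes and the 3 genes most like the members' summed level, and 1 gene named by the rule is not reported here. Names outside this rule (DCP1B, PATL1, ATF4, BAG1, PTBP1, RPL3, TIA1 and KRT20) were chosen after their values were seen. The alternatives were DESeq2 (version 1.42.0), other scaling and filters, protein-coding genes only, a replicate block and leaving out each library.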

Additional observations from a re-analysis of the deposited data

How the results depend on the processing

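SMG9 and SRSF11 passed in each of 14 alternatives, SMG9 between -0.48 and -0.41 on the log2 scale. The number of NMD factors called was 2 under each alternative to the test, scaling, filter and gene set. With a library left out it was 1 to 3, as SMG5 was lost in 3 of 6 such fits and SMG1 or SMG8 gained in 2. Calls over all genes were 2741 to 3871 in those 6 fits, against 3886 in the main fit. The 3 fits that lost SMG5 had the fewest, at 2741, 2852 and 2990. No member was higher under any alternative except SMG8 without si-NC replicate 2 and SMG1 without si-SRSF11 replicate 3. Among protein-coding genes only, 7 decay substrates and 0 SMG1 pseudogenes passed, because noncoding genes were not tested. With each library left out, 3 to 5 other NMD-linked genes passed (5 without si-SRSF11 replicate 3), 0 to 1 decapping and decay genes (1 without si-SRSF11 replicate 1 or 3) and 1 to 2 SMG1 pseudogenes (2 without si-NC replicate 2), and the cause was not tested. The UPF3A to UPF3B ratio without length scaling was 6.59 in si-NC and 6.14 in si-SRSF11. Scaling by library size alone turned the split of all calls from 2081 higher and 1805 lower to 1585 higher and 2289 lower, with a median shift of -0.034 on the log2 scale. With the replicate block, 2 NMD factors and 4036 of all genes passed. Deviations of same-numbered libraries correlated at 0.00021, 0.053 and 0.066, and those of differently numbered libraries at -0.063 to 0.0087. These values do not decide whether the numbers mark pairs, and the numbers were not taken as pairs in the main fits. The fit without mitochondrial genes was added after the data were seen. UPF2 and UPF3B, at 170 to 309 counts, had the widest intervals.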
